A study of Mus musculus with 12 samples.

Results

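The genes described here are 10 members of the BCL2 family, the proteins that decide whether a cell keeps its mitochondria intact or dies by apoptosis. They were taken by gene symbol from a table of raw read counts of 55421 genes: *Bcl2*, *Bcl2l1* and *Mcl1* (anti-apoptotic), *Bax* and *Bak1* (pore-forming), and *Bcl2l11*, *Bid*, *Bad*, *Bbc3* and *Pmaip1* (BH3-only). All 10 were found, and all 10 passed the filter on low counts, which kept 14460 genes. The RNA came from OT-I cells, CD8 T cells with a transgenic receptor for an ovalbumin peptide, with the Rroid2 gene intact (wild-type, WT) or knocked out (KO). They had been transferred into mice, which were infected with *Listeria monocytogenes* carrying ovalbumin, and were sorted from the spleen.

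The 12 libraries formed 6 groups of 2. Short-lived effector cells (SLEC) were taken on day 7 and day 14 of infection, and memory precursor effector cells (MPEC) on day 14, each as WT and KO. All groups shared the OT-I receptor, the transfer, the infection and the spleen as source, and no uninfected or naive cells were among them. The sort gates, the recipient strain and how the knockout was made are not given. Nothing in the labels tells if replicate libraries came from different mice, so p-values measure only the spread between libraries, which may be technical. The RNA was bulk RNA, in which fewer cells of a type and less RNA per cell cannot be told apart.

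In the mitochondrial pathway of apoptosis, BAX and BAK (encoded by *Bak1*) open the outer membrane of the mitochondrion and release cytochrome c, which starts the caspases. BCL2, BCL-XL (encoded by *Bcl2l1*) and MCL1 hold them back, and the BH3-only proteins BIM (*Bcl2l11*), BID, BAD, PUMA (*Bbc3*) and NOXA (*Pmaip1*) bind the guardians or the pore formers and tip the balance towards death. In CD8 T cells, BIM and BCL2 are known as opponents during the loss of effector cells after an infection is cleared, and the cytokines IL-7 and IL-15 are known to support BCL2 in cells that live on.

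The promoters of *Bcl2*, the member whose mRNA moved most, and of *Bcl2l11*, which encodes its BH3-only opponent and was called in no comparison, are shown as the 250 bases before the transcription start in RefSeq (GRCm38.p6). Of the 10 members, 9 were looked up this way, and each had at least 1 such window, 15 windows in all. *Pmaip1* was left out of the search, so whether it has such a window was not read. The *Bcl2* window lies at chr1:106714291-106714540 on the minus strand, and its capitals mark the single TGACGT, the core of a site for CREB and ATF factors.
Bcl2: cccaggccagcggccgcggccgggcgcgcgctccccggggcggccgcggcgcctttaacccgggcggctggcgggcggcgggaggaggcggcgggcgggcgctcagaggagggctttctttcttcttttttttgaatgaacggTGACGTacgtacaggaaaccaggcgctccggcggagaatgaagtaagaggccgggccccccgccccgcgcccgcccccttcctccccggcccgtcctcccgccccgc
The *Bcl2l11* window, the first of its RefSeq starts in the table, lies at chr2:128125788-128126037 on the plus strand, and its capitals mark the single GTAAACA, the core of a site for forkhead factors such as FOXO1 and FOXO3.
Bcl2l11: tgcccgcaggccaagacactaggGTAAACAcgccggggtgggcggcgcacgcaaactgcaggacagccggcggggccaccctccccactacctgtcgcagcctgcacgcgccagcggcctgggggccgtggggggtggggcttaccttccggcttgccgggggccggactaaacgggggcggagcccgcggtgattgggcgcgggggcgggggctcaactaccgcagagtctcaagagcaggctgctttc
Motifs were searched on both strands. TGACGT was chosen after the *Bcl2* window had been read, starts 107 bases before the *Bcl2* start and is in 6.47% of 32851 promoter windows of the same length. GTAAACA starts 227 bases before the *Bcl2l11* start and is in 3.17% of the windows. It is not in the other *Bcl2l11* window (chr2:128127325-128127574), and a *Bbc3* window also has a match. The letters of a STAT site (TTCNNNGAA, in 7.02% of windows) and of an E-box (CANNTG, in 66.2%) are not in either window shown. These matches are letters in a window and were not measured as bound.

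Total counts per library were 7603551 at the lowest and 14026594 at the highest. No gene with the symbol Rroid2 was in the table, so loss of the targeted RNA was not read from a count. The labels were set against marker genes in CPM (counts scaled to the effective library size). The 6 CD8 T cell markers summed to 3502 to 4742 CPM in every library, while *Cd4* reached at most 1.06 CPM. *Klrg1*, a surface marker of effector cells, was at 132 to 321 CPM in SLEC and 1.33 to 3.74 CPM in MPEC, and *Il7r*, the IL-7 receptor, at 14.1 to 71.7 and 759.8 to 1037 CPM. Both WT SLEC day 14 libraries stood apart by RNA of other cells: the 10 B cell markers summed to 257 and 1154 CPM there, against 1.67 to 120.0 CPM elsewhere, and the 8 monocyte and macrophage markers to 59.0 and 44.0 CPM, against 6.73 to 30.8. Genes of dividing cells (5 markers) summed to 763 and 2131 CPM in the WT and 1813 and 1598 CPM in the KO libraries of day 7, and to 61.0 to 131 CPM on day 14.

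Per kilobase of exon, *Mcl1* had the highest mean level of the family over the 12 libraries, 108 CPM per kb (range 94.4 to 129). *Pmaip1* (24.8) and *Bak1* (24.6) followed, then *Bcl2* at 13.7 with the widest range, 1.83 to 30.3 CPM per kb. *Bcl2l1* stood at 11.4, *Bax* at 7.96, *Bcl2l11* at 7.60, *Bbc3* at 5.53, *Bid* at 5.15 and *Bad* at 4.26 CPM per kb. The order therefore differed by group: *Bcl2* was at 2.91 CPM per kb in WT and in KO SLEC of day 7, under *Bcl2l11* (7.58 and 6.83), and at 26.5 in WT and 28.6 in KO MPEC, above *Pmaip1* (13.0 and 12.2). Of neighbours in the order over all libraries, *Mcl1* and *Pmaip1* were separated by more than the sum of their SDs, and the other 8 pairs were not. These SDs run over all 12 libraries and so include the differences between groups. With the longest transcript as the length, *Bcl2l1* (20.3) lay above *Bcl2* (17.4) and *Bcl2l11* (12.1) above *Bax* (11.4), while *Bbc3* (6.48) moved from the eighth place to the last, below *Bid* (7.57) and *Bad* (7.10). The first 3 places were held by the same genes.

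**Figure D1:**
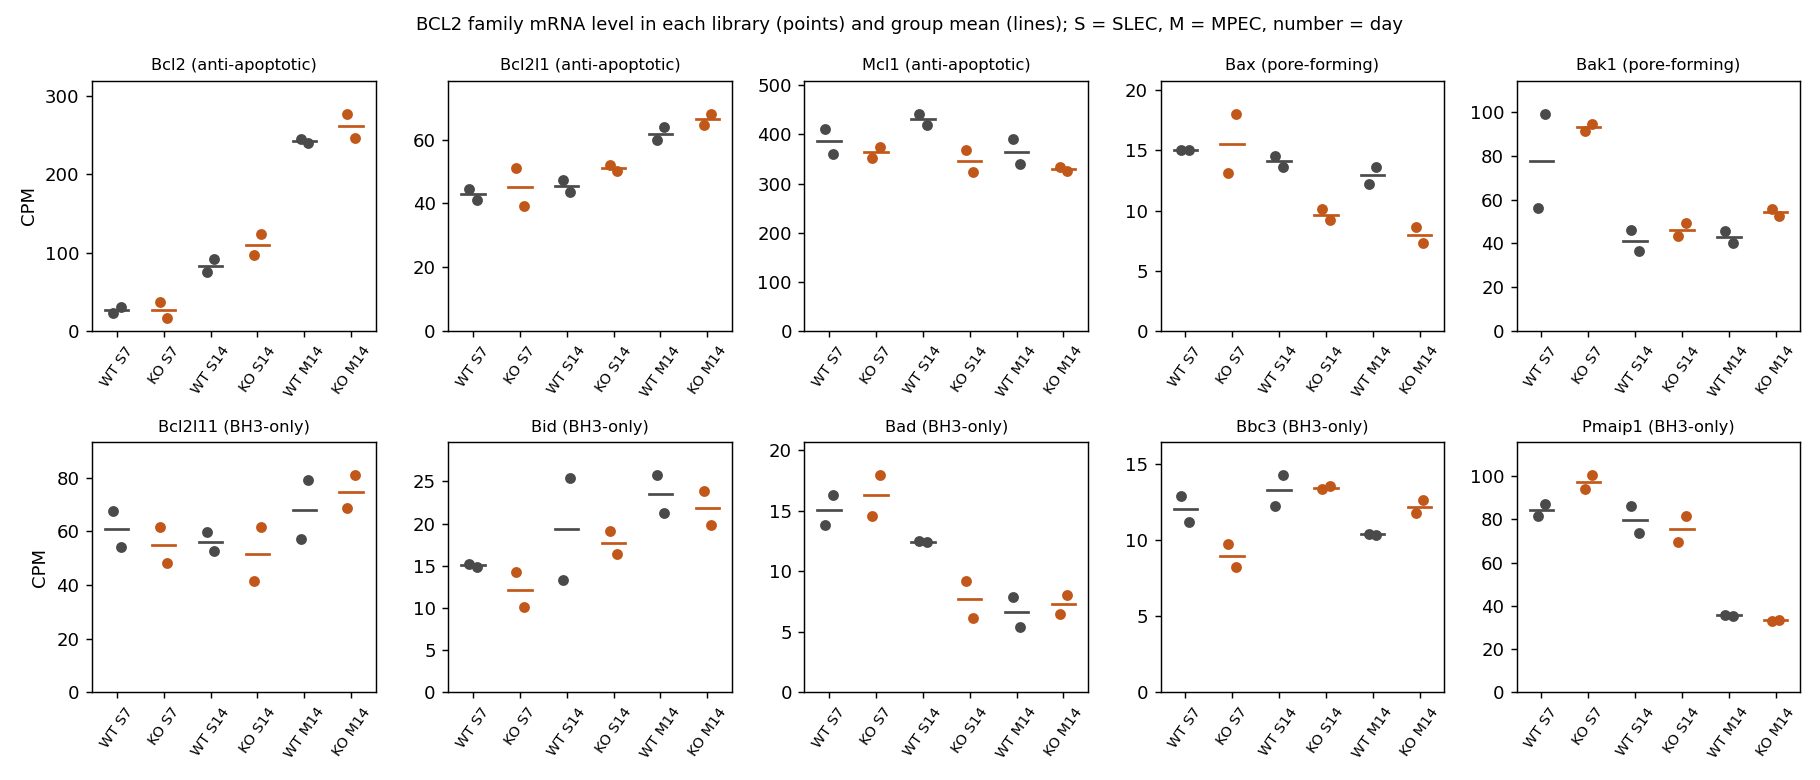
Level of each of the 10 members in CPM (vertical axis, starting at 0, its own scale in each panel) in the 6 groups (horizontal axis), with points for the 2 libraries of a group, lines for their mean, dark grey for WT and orange for KO. *Bcl2* climbs from 16.7 to 36.6 CPM in SLEC of day 7 to 239.9 to 278 CPM in MPEC, and *Pmaip1* is lowest in the 4 MPEC libraries.

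Between day 7 and day 14 in SLEC, as the mean of the 2 genotypes, *Bcl2* rose and *Bak1* and *Bad* fell, while the other 7 members were not called. These 3 of 10 members stand beside 25.1% of all 14460 genes tested (11.4% higher and 13.7% lower), so the count is no result about the family as a set. The median log2 change of the members was -0.04, against 0.02 over all genes. In WT SLEC alone 2 of 10 were called (1 higher, 1 lower), beside 9.94% of all genes (4.69% higher, 5.25% lower), and in KO SLEC 3 of 10 (1 higher, 2 lower), beside 17.2% (7.7% higher, 9.5% lower). Between MPEC and SLEC at day 14, as the mean of the genotypes, *Bcl2* and *Bcl2l1* were higher and *Pmaip1* lower in MPEC: 3 of 10 members, beside 13.1% of all genes (7.14% higher and 5.99% lower). The median change was 0.00 in the members and -0.01 in all genes. In WT 2 of 10 were called (1 higher, 1 lower), beside 7.96% of all genes (3.66% and 4.3%), and in KO 2 of 10 (1 higher, 1 lower), beside 5.11% (2.9% and 2.21%). The SLEC day 14 libraries entered both the comparison of days and that of populations, so these 2 are not independent. The share of counts on the mitochondrial ribosomal RNA genes *mt-Rnr1* and *mt-Rnr2* separated the same groups, at 12.6% to 19.5% in SLEC of day 7, 8.004% to 10.2% in SLEC of day 14 and 10.97% to 13.8% in MPEC, and its part in these results was not tested.

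Of the anti-apoptotic genes, *Bcl2* (ENSMUSG00000057329.7, chr1:106538178-106714274, minus strand, GRCm38) had the largest changes of the family in both comparisons. In WT SLEC its level was 22.6 and 30.6 CPM on day 7 and 75.2 and 91.8 CPM on day 14. In KO SLEC it was 36.6 and 16.7 CPM on day 7 and 96.8 and 124 CPM on day 14. In MPEC it was 245 and 239.9 CPM in WT and 278 and 246 CPM in KO. Every day 14 SLEC library thus lay above every day 7 library, and every MPEC library above every SLEC library. From day 7 to day 14 *Bcl2* rose 3.56-fold in SLEC as the mean of the genotypes (log2 1.83, SE 0.19, adjusted p = 1.36e-05, edgeR). The rise was 3.14-fold in WT (log2 1.65, SE 0.27, adjusted p = 0.00171) and 4.03-fold in KO (log2 2.01, SE 0.27, adjusted p = 0.000303). The difference between these rises, 0.36 (95% interval -0.45 to 1.17), was not called (adjusted p = 0.876). The B cell markers moved with the WT comparison. With the log2 of their summed level as a term (the B cell term), the WT rise was 0.99 and not called (adjusted p = 0.231). Beside 1 coefficient per group, this term rests on differences between replicates, such as 1.67 and 23.9 CPM in WT SLEC of day 7. Those libraries also differed in genes of dividing cells (763 and 2131 CPM), which the term cannot tell apart. In KO SLEC of day 14 the B cell markers summed to 13.8 and 6.46 CPM. The part of B cell RNA in the rise of either genotype was not tested beyond the B cell term.

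At day 14 *Bcl2* was 2.63-fold higher in MPEC than in SLEC (log2 1.39, SE 0.17, adjusted p = 8.65e-05, mean of the genotypes). It was 2.90-fold higher in WT (log2 1.54, SE 0.24, adjusted p = 0.00167) and 2.38-fold higher in KO (log2 1.25, SE 0.25, adjusted p = 0.00758). In KO alone the call was lost without KO SLEC day 14 replicate 1 (1.08, adjusted p = 0.102) and without KO MPEC day 14 replicate 1 (1.16, adjusted p = 0.0901). The means over genotypes were called in all 18 alternatives, with a log2 change of 1.51 to 2.18 between days and 1.31 to 1.53 between populations. An antisense RNA, *D630008O14Rik*, shares 558 exon bases with *Bcl2*, 6.09% of its exons, and it is not given whether the counting used the strand.

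*Bcl2l1* (ENSMUSG00000007659.18, chr2:152780668-152831728, minus strand), which encodes BCL-XL, varied less. In SLEC it was at 44.6 and 41.2 CPM in WT and 51.1 and 39.3 CPM in KO on day 7, and at 47.3 and 43.7 CPM in WT and 52.0 and 50.3 CPM in KO on day 14. In MPEC it was at 60.0 and 63.9 CPM in WT and 64.7 and 68.2 CPM in KO. All 4 MPEC libraries lay above all 8 SLEC libraries. The difference was 1.33-fold at day 14 (log2 0.41, SE 0.12, adjusted p = 0.0286), but the call was lost on leaving out any 1 of the 8 day 14 libraries (log2 0.37 to 0.43, adjusted p = 0.0659 to 0.135). Neither genotype alone gave a call (WT 0.44, adjusted p = 0.121, and KO 0.38, adjusted p = 0.27), and between days the change was 0.13 (SE 0.12, adjusted p = 0.481).

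*Mcl1* (ENSMUSG00000038612.16, chr3:95658788-95663176, plus strand), a short-lived guardian that T cells need throughout life, was called in no comparison. It was at 412 and 359.7 CPM in WT and 353 and 375 CPM in KO SLEC of day 7. On day 14 it was at 442 and 419 CPM in WT and 368 and 323 CPM in KO SLEC, and at 389.9 and 339.8 CPM in WT and 333 and 326 CPM in KO MPEC. The lowest and the highest of the 12 libraries were both day 14 SLEC. The change between days was 0.04 (95% interval -0.17 to 0.25) and that between populations -0.15 (95% interval -0.36 to 0.05).

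Of the pore formers, *Bak1* (ENSMUSG00000057789.14, chr17:27019810-27029009, minus strand) fell in SLEC after day 7. In WT SLEC it was at 56.3 and 99.3 CPM on day 7 and 46.2 and 36.4 CPM on day 14. In KO SLEC it was at 91.3 and 94.7 CPM on day 7 and 43.2 and 49.3 CPM on day 14. In MPEC it was at 45.5 and 40.0 CPM in WT and 55.6 and 52.7 CPM in KO. The 4 day 7 libraries lay above the other 8, by little for WT SLEC day 7 replicate 1. As the mean of the genotypes the level on day 7 was 1.95-fold that on day 14 (log2 change -0.96, SE 0.15, adjusted p = 0.000193), and this was called in all 18 alternatives. The change was -0.92 in WT (SE 0.22, adjusted p = 0.0113) and -1.01 in KO (SE 0.22, adjusted p = 0.00459).

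The WT call of *Bak1* rested on single libraries: it was -0.44 (adjusted p = 0.218) without WT SLEC day 7 replicate 2 and -0.75 (adjusted p = 0.176) without WT SLEC day 14 replicate 2. In KO it was -0.91 (adjusted p = 0.0638) without KO SLEC day 14 replicate 1. The genes of dividing cells were also higher on day 7. WT SLEC day 7 replicates 1 and 2, at 56.3 and 99.3 CPM of *Bak1*, had 763 and 2131 CPM of those 5 markers. The order was the reverse in KO SLEC of day 7 (91.3 and 94.7 CPM of *Bak1*, 1813 and 1598 CPM of the markers). It was also the reverse in WT SLEC of day 14 (46.2 and 36.4 CPM, with 111 and 131 CPM). In the remaining groups the replicate with more *Bak1* had more of the markers. The part of these genes in the result was not tested. Between MPEC and SLEC *Bak1* changed by 0.14 (95% interval -0.19 to 0.48) and was not called. *Ggnbp1*, on the opposite strand, shares 437 exon bases with *Bak1*, 18.2% of its exons.

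*Bax* (ENSMUSG00000003873.11, chr7:45461697-45466898, minus strand), the other pore former, was called in no comparison. It was at 15.0 and 15.1 CPM in WT and 13.1 and 18.1 CPM in KO SLEC of day 7. On day 14 it was at 14.6 and 13.6 CPM in WT and 10.1 and 9.21 CPM in KO SLEC, and at 12.2 and 13.7 CPM in WT and 8.62 and 7.29 CPM in KO MPEC. The 4 KO libraries of day 14 were the lowest of the 12. The change between days was -0.38 (adjusted p = 0.161) and that between populations -0.21 (adjusted p = 0.588), and the predicted gene *Gm45808* shares 192 exon bases with *Bax*, 12.2% of its exons.

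Of the BH3-only genes, *Pmaip1* (ENSMUSG00000024521.8, chr18:66458533-66465565, plus strand), whose product NOXA binds mainly MCL1, was lower in MPEC. It was at 81.6 and 87.0 CPM in WT and 94.2 and 101 CPM in KO SLEC of day 7. On day 14 SLEC had 86.0 and 73.7 CPM in WT and 69.7 and 81.6 CPM in KO. In MPEC it was at 35.7 and 35.5 CPM in WT and 33.1 and 33.7 CPM in KO. The 4 MPEC libraries lay within a narrow band below the 8 SLEC libraries. The level in SLEC of day 14 was 2.25-fold that in MPEC (log2 change -1.17, SE 0.12, adjusted p = 1.8e-06). The change was -1.16 in WT (SE 0.16, adjusted p = 0.000196) and -1.18 in KO (SE 0.17, adjusted p = 0.000267), and all 3 were called in all 18 alternatives, from -1.30 to -1.06. Between days *Pmaip1* changed by -0.22 (95% interval -0.45 to 0.01) and was not called.

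*Bad* (ENSMUSG00000024959.14, chr19:6941861-6951899, plus strand), whose product is held inactive by survival kinases, was at 13.8 and 16.3 CPM in WT and 14.6 and 18.0 CPM in KO SLEC of day 7. On day 14 SLEC had 12.5 and 12.4 CPM in WT and 9.21 and 6.18 CPM in KO. MPEC had 7.86 and 5.37 CPM in WT and 6.47 and 8.05 CPM in KO. The day 7 libraries lay above all others. *Bad* fell between days by 0.65 on the log2 scale (SE 0.21, adjusted p = 0.0285), and by 1.04 in KO (SE 0.32, adjusted p = 0.0333), while the WT change of -0.27 (SE 0.27) was not called (adjusted p = 0.602). Both calls depended on single libraries. The mean was not called without WT SLEC day 7 replicate 2 (adjusted p = 0.0736), KO SLEC day 7 replicate 2 (0.0877), WT SLEC day 14 replicate 1 (0.0741) or 2 (0.0769), or KO SLEC day 14 replicate 2 (0.131), nor with the B cell term (0.0739). The KO call was lost without KO SLEC day 7 replicate 2 (adjusted p = 0.146), KO SLEC day 14 replicate 1 (0.0652) or 2 (0.236), and with only the groups compared in the fit (0.0544). Whether the fall differed between genotypes was tested, and the difference of -0.76 (SE 0.42) was not called (adjusted p = 0.781). *Gpr137*, on the opposite strand, shares 524 exon bases with *Bad*, 20.5% of its exons.

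*Bcl2l11* (ENSMUSG00000027381.16, chr2:128126038-128162547, plus strand), which encodes BIM, was called in no comparison. SLEC of day 7 had 67.6 and 54.1 CPM in WT and 61.7 and 48.1 CPM in KO, and SLEC of day 14 59.6 and 52.5 CPM in WT and 41.6 and 61.6 CPM in KO. MPEC had 57.2 and 79.1 CPM in WT and 68.7 and 81.0 CPM in KO. The groups overlapped, with 3 of the 4 MPEC libraries above every SLEC library. The change between populations was 0.41 (SE 0.15, adjusted p = 0.0836). It was called without KO SLEC day 14 replicate 2 (0.56, adjusted p = 0.0437) and with only the groups compared in the fit (0.41, adjusted p = 0.0401). Between days the change of *Bcl2l11* was -0.11 (95% interval -0.43 to 0.21).

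*Bid* (ENSMUSG00000004446.12, chr6:120891930-120916853, minus strand), which links death receptors to mitochondria once cut by caspase-8, ranged from 10.1 to 25.8 CPM. In WT SLEC of day 14 its 2 libraries were at 13.3 and 25.4 CPM, the higher value in the library with 1154 CPM of B cell markers, while the 4 MPEC libraries lay at 19.8 to 25.8 CPM. The change between days was 0.46 (SE 0.21, adjusted p = 0.13), 0.04 with the B cell term, and it was called without WT SLEC day 14 replicate 1 (0.65, adjusted p = 0.0334). *Bcl2l13*, on the opposite strand, shares 628 exon bases with *Bid*, 17.7% of its exons. *Bbc3* (ENSMUSG00000002083.13, chr7:16308393-16318205, plus strand), whose product PUMA is a p53 target, ranged from 8.27 to 14.3 CPM, lowest in both KO SLEC day 7 libraries. Its changes of 0.36 between days (adjusted p = 0.189) and -0.25 between populations (adjusted p = 0.463) were not called.

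**Figure D2:**
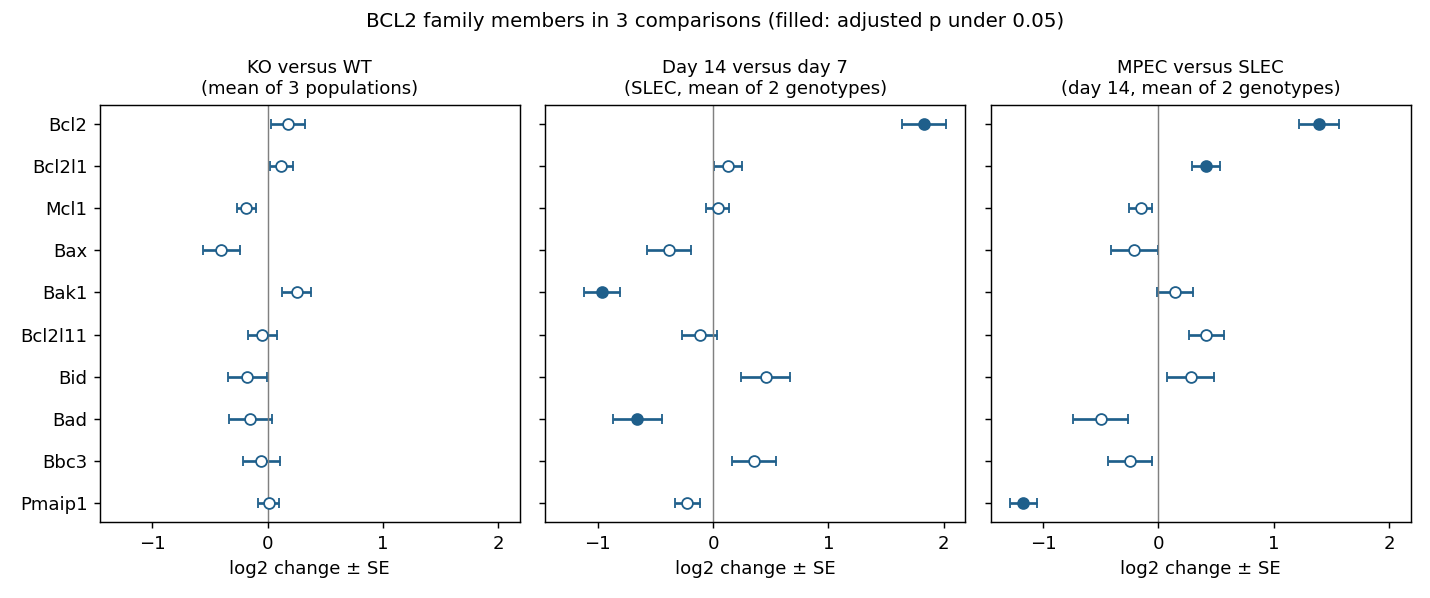
Log2 change of each member (points) with its SE (bars) in 3 comparisons, KO against WT, day 14 against day 7 in SLEC, and MPEC against SLEC at day 14, each averaged as its panel says; filled points had an adjusted p under 0.05. *Bcl2* lies at 1.83 and 1.39 in the panels of days and populations, *Bak1* at -0.96 and *Pmaip1* at -1.17, and all points of the KO panel are open.

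Loss of Rroid2 changed no member by the test. In KO against WT cells, 0 of 10 members were called by edgeR in SLEC of day 7, in SLEC of day 14, in MPEC and in the mean of the 3 populations, beside 0.0277%, 0.539%, 0.0138% and 0.083% of all genes. The KO effect differed for 0 of 10 members between SLEC of day 14 and day 7 and between MPEC and SLEC, beside 0.00692% and 0% of all genes. At an unadjusted p under 0.05 there were 0, 1, 1, 2, 0 and 0 members in these 6 comparisons, and DESeq2 called 0 members in each. With so few calls among all genes, counts of 0 are close to the background. That background itself rested on single libraries: in SLEC of day 14, 78 of all genes were called, 2 without KO SLEC day 14 replicate 2 and 223 without WT SLEC day 14 replicate 1.

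The members with the smallest p in the mean KO effect were *Bax*, at -0.40 (SE 0.16, unadjusted p = 0.0232, adjusted p = 0.526), and *Mcl1*, at -0.18 (SE 0.08, unadjusted p = 0.0357, adjusted p = 0.565). By value, both were larger on day 14. *Bax* changed by 0.03 in SLEC of day 7, -0.53 (SE 0.29) in SLEC of day 14 and -0.70 (SE 0.30) in MPEC, and *Mcl1* by -0.08, -0.32 (SE 0.14) and -0.15. The difference of the KO effect between day 14 and day 7 was -0.57 (SE 0.38, adjusted p = 0.81) for *Bax* and -0.23 (SE 0.20, adjusted p = 0.85) for *Mcl1*.

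KO and WT libraries did not overlap for *Bid*, *Bbc3* and *Pmaip1* in SLEC of day 7. In MPEC they did not for *Bcl2*, *Bcl2l1*, *Mcl1*, *Bax*, *Bak1*, *Bbc3* and *Pmaip1*. The share of all genes with libraries so separated was not counted, so no separation given here is a result about the members. In SLEC of day 14 both KO libraries lay above both WT libraries for *Bcl2* (0.39, SE 0.25, adjusted p = 0.567) and *Bcl2l1* (0.17, SE 0.17, adjusted p = 0.761). Both lay below for *Mcl1* (adjusted p = 0.355), *Bax* (adjusted p = 0.465) and *Bad* (-0.66, SE 0.32, adjusted p = 0.411). The B cell and monocyte markers were high in the WT libraries of this comparison, and their part in these values was not tested beyond the B cell term, under which no member was called. The 8 memory precursor markers summed to 1001 and 1020 CPM in the KO and 620 and 529 CPM in the WT libraries, against 2454 to 3144 CPM in MPEC, where *Bcl2* and *Bcl2l1* were also higher. Their part in the KO values was not tested. The mean KO effects left room for changes of some size: the 95% interval ran from -0.14 to 0.50 for *Bcl2*, from -0.09 to 0.33 for *Bcl2l1*, from -0.02 to 0.52 for *Bak1* and from -0.30 to 0.21 for *Bcl2l11*. It was -0.53 to 0.18 for *Bid*, -0.54 to 0.24 for *Bad*, -0.38 to 0.28 for *Bbc3* and -0.18 to 0.21 for *Pmaip1*, the narrowest but for *Mcl1*.

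The ratio of 2 members within 1 library does not depend on how libraries are scaled. It is a ratio of counts, not adjusted for length, so only its change between libraries is read. *Bcl2* had 0.334 and 0.567 counts per count of *Bcl2l11* in WT and 0.593 and 0.348 in KO SLEC of day 7. On day 14 the ratio was 1.26 and 1.75 in WT and 2.33 and 2.01 in KO SLEC, and 4.29 and 3.03 in WT and 4.04 and 3.04 in KO MPEC. The 3 populations did not overlap in either genotype, and both KO SLEC libraries of day 14 lay above both WT ones. The ratio of *Bcl2* to *Bcl2l1* took the same order, from 0.426 to 0.744 in SLEC of day 7 through 1.59 to 2.46 in SLEC of day 14 to 3.61 to 4.29 in MPEC. The ratio of *Mcl1* to *Bcl2l11* ran from 4.02 to 8.84, and its populations were less far apart. In SLEC of day 7 it was 6.09 and 6.65 in WT and 5.72 and 7.80 in KO, and in SLEC of day 14 it was 7.42 and 7.97 in WT and 8.84 and 5.24 in KO. In MPEC it was 6.82 and 4.29 in WT and 4.85 and 4.02 in KO, so that 3 of the 4 MPEC libraries lay below all 8 SLEC libraries and the other overlapped with them. Between days the WT libraries of SLEC did not overlap and the KO libraries did. As these ratios use the members' own counts, they are no further evidence for the changes above.

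**Figure D3:**
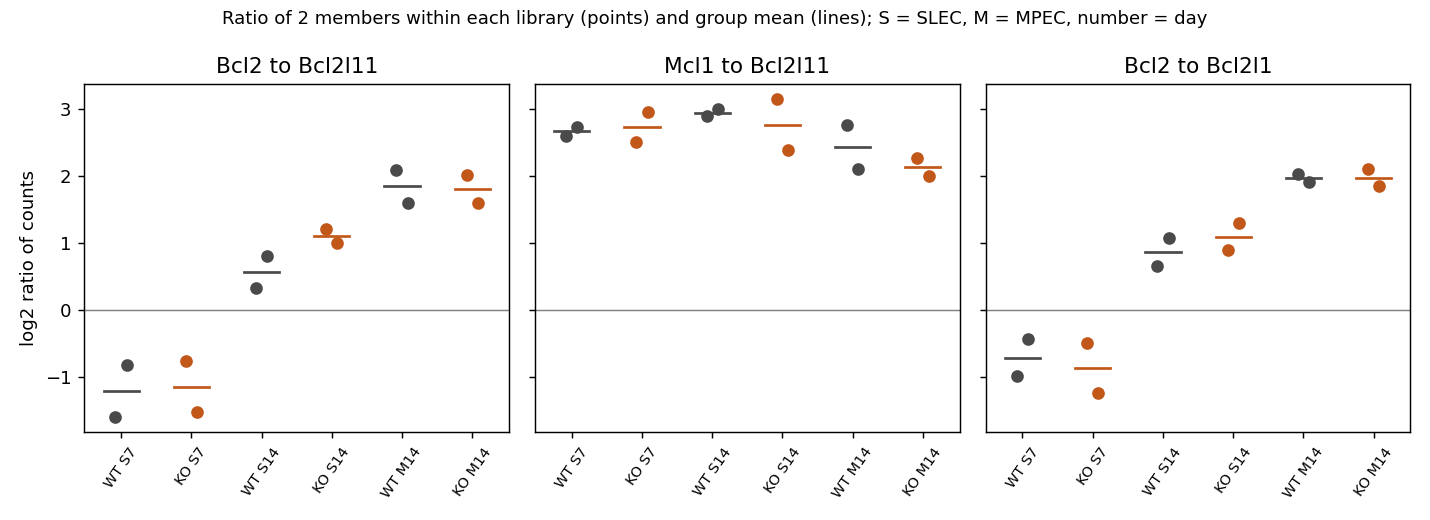
Log2 ratio of the counts of 2 members within each library (points, with group means as lines, dark grey for WT and orange for KO) for *Bcl2* to *Bcl2l11*, *Mcl1* to *Bcl2l11* and *Bcl2* to *Bcl2l1* in the 6 groups. The group means of *Bcl2* to *Bcl2l11* go from -1.20 and -1.14 in SLEC of day 7 to 1.85 and 1.81 in MPEC, while those of *Mcl1* to *Bcl2l11* lie between 2.14 and 2.94.

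Over the 12 libraries, Pearson's r of log2 CPM was 0.88 between *Bcl2* and *Bcl2l1*, -0.90 between *Bcl2* and *Bad*, -0.87 between *Bcl2* and *Pmaip1* and -0.91 between *Bcl2l1* and *Pmaip1*. The libraries fall into 3 populations that share their processing, so these values describe the same group differences again. Among 7896 genes of at least moderate level (mean log2 CPM of 3 or more), those most like *Bcl2* were *Zeb1* (r = 0.990), *Hvcn1* (0.979), *Mdn1* (0.978), *Usp32* (0.976) and *Htt* (0.972). *Zeb1* encodes a zinc finger repressor of transcription and *Hvcn1* a proton channel. The genes most like *Bcl2l11* were *Mrps6* (0.887), *Mark2* (0.876), *Washc4* (0.850), *Enoph1* (0.842) and *Trib2* (0.831), and those most like *Mcl1* were *Pitpnm1* (0.907), *Ccdc137* (0.905), *Prr3* (0.898), *Ldb1* (0.890) and *Zfp85* (0.888). The best matches of *Bcl2l11* and *Mcl1* were thus looser than those of *Bcl2*.

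The other genes of the pathway were taken from 6 lists, and the counts below are for the means over the genotypes. They stand beside 25.1% of all genes between days (11.4% higher, 13.7% lower) and 13.1% between populations (7.14% higher, 5.99% lower). The list medians ran from -0.49 to 0.61 between days, against 0.02 over all genes. Between populations they ran from -0.27 to 0.09, against -0.01. Of the other BCL2 family genes, 11 of 17 were tested, and between days 0 rose and 5 fell (median -0.49, against 0.02 over all genes). *Bnip2* (-0.49, adjusted p = 0.00335) was called in all 18 alternatives. *Bcl2l12* (-1.07), *Bnip1* (-0.81), *Bcl2a1b* (-1.24) and *Bcl2l15* (-2.34) each lost the call in at least 1 of them, and *Bcl2a1b*, a guardian induced by antigen and inflammation, has near-identical copies between which reads can be split. Its call was lost in 9 of the 18, with an adjusted p of 0.467 under the B cell term. Between MPEC and SLEC 0 of these 11 genes were called by edgeR and 0 by DESeq2, while 2 had an unadjusted p under 0.05.

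Of the caspases, the apoptosome and their inhibitors, all 19 were tested, and between days 2 rose and 4 fell (median 0.02, as over all genes). *Birc5*, the survivin gene, which is also among the 5 genes of dividing cells, fell by 6.41 on the log2 scale (adjusted p = 2.02e-07) and was called in all 18 alternatives. *Dffb* (-0.83), *Casp6* (-0.59), *Casp9* (0.58) and *Birc6* (0.36) lost the call in at least 1. In MPEC 2 of the 19 were lower than in SLEC, among them *Apaf1*, the scaffold of the apoptosome (-0.49, adjusted p = 0.016), called in 14 of 18.

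Of the death receptor pathway, all 11 genes were tested, and between days 2 rose and 2 fell. *Cflar*, whose product blocks caspase-8, rose by 0.45 (adjusted p = 0.00532) and was called in all 18 alternatives. *Fas* fell from 22.1 to 41.7 CPM in SLEC of day 7 to 10.7 to 15.3 CPM on day 14 (-1.17, adjusted p = 0.000363), and *Tradd*, an adaptor of the TNF receptor, fell by 0.65 (adjusted p = 0.0034). Both lost the call only with the B cell term (-0.56, adjusted p = 0.14, for *Fas*, and -0.61, adjusted p = 0.0637, for *Tradd*). *Tnfrsf1a* (0.43) was called in 8 of 18. Between MPEC and SLEC 2 were higher and 2 lower. *Fasl*, the ligand of FAS, was at 59.0 to 67.3 CPM in SLEC of day 14 and 24.5 to 36.3 CPM in MPEC (-1.15, adjusted p = 1.7e-05, called in all 18). *Tnfsf10* (0.44), *Tnfrsf1a* (-0.53) and *Tnfrsf10b*, which stayed under 2 CPM, lost the call in at least 1.

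Of 13 regulators and targets of p53 and FOXO, 1 rose and 3 fell between days. *Foxo3* rose from 52.2 to 90.5 CPM to 112 to 197 CPM (1.04, adjusted p = 0.000102, called in all 18), and *Cdkn1a* (-2.25), *Mdm2* (-0.39) and *Ccng1* (-0.39), all p53 targets, were lower but each lost the call in at least 1. In MPEC *Foxo1* (0.80, adjusted p = 5.85e-05) and *Trp53*, the gene of p53 itself (0.64, adjusted p = 0.00341), were higher in all 18, and *Trp53inp1* (-0.42) was lower in 10. *Foxo1* was at 103 to 128 CPM in SLEC of day 14 and 174 to 231 CPM in MPEC. Among the members known as p53 or FOXO targets are *Bbc3* and *Bcl2l11*, which were not called, and *Pmaip1*, which was lower in MPEC.

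Of 15 genes of common gamma chain cytokine signalling, 5 were higher and 1 lower in MPEC, and all 6 held in all 18 alternatives. *Il7r* was 4.52 higher on the log2 scale (adjusted p = 2.63e-11), but as a sorting marker of the populations by convention it is no independent finding. *Socs3*, a feedback inhibitor of cytokine signals, was at 0.275 to 2.15 CPM in SLEC of day 14 and 27.9 to 42.4 CPM in MPEC (5.10, adjusted p = 7.29e-08). *Pim2*, a survival kinase (1.56), *Socs1* (1.45) and *Il2rb*, a receptor chain for IL-2 and IL-15 (0.88), were higher, and *Jak1* (-0.73) was lower. Between days 2 rose and 3 fell, of which *Il7r* (1.10, adjusted p = 0.00028) and *Socs3* (-2.60, adjusted p = 0.00164) held in all 18, while *Cish* (0.80), *Jak3* (-0.39) and *Il2ra* (-0.57) did not.

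Of 5 genes of MCL1 turnover, 4 rose between days and 0 fell (median 0.61, against 0.02 over all genes). *Huwe1*, an E3 ligase that marks MCL1 for breakdown, rose by 0.67 (adjusted p = 0.000245), and *Usp9x*, which removes that mark, by 0.67 (adjusted p = 0.000444), both in all 18 alternatives. The E3 ligase subunit genes *Fbxw7* (0.39) and *Btrc* (0.61) lost the call in at least 1. The level of *Mcl1* mRNA itself was not called between days, and protein was not measured. Between MPEC and SLEC 0 of the 5 were called by edgeR and 0 by DESeq2, and 1 had an unadjusted p under 0.05.

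In KO against WT cells, 1 gene of the 6 lists was called by edgeR in any of the 6 KO comparisons: *Il7r*, higher in KO SLEC of day 14 (1.10, adjusted p = 0.0496). Its levels were 28.6 and 25.6 CPM in WT and 71.7 and 42.7 CPM in KO, and the call held in 7 of 18 alternatives, with a log2 change of 0.65 to 1.39. *Il7r* is 1 of the 8 memory precursor markers, whose sum was higher in these KO libraries.

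**Figure D4:**
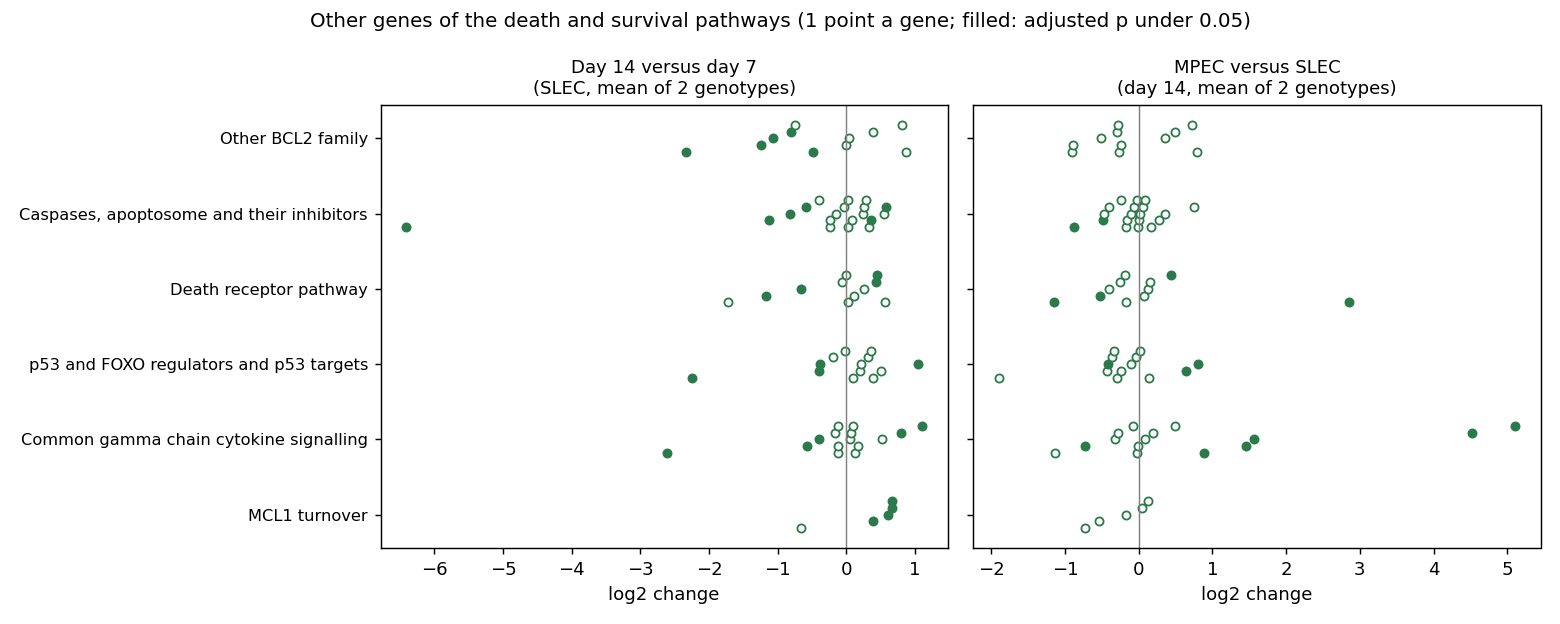
Log2 change (horizontal axis) of each tested gene of the 6 pathway lists (rows, 1 point a gene, spread vertically for sight only) between day 14 and day 7 in SLEC and between MPEC and SLEC at day 14, as means of the genotypes; filled points had an adjusted p under 0.05. *Birc5* is the point at -6.41 in the panel of days, and *Socs3* and *Il7r* are those at 5.10 and 4.52 in the panel of populations.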

How the data were processed

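RNA was sequenced from 12 libraries of sorted cells. Libraries were stranded SMART-Seq libraries, per the labels' protocols. The authors deposited raw counts for each gene. Tools named in the submitters' processing notes were bcl2fastq and STAR 2.6.1a, with the GRCm38 build. The counting program, its annotation and its use of strand were not given in the sources used here. Groups came from the labels.

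The test was edgeR 4.0.16 in R 4.3.3: filterByExpr over groups (14460 genes, 99.7% or more of each library's counts), TMM scaling, and a robust quasi-likelihood fit with 1 coefficient per group. It left 6 residual degrees of freedom. There were 12 comparisons, with two-sided p-values adjusted by Benjamini-Hochberg over all genes and called under 0.05. Reads carry no molecular identifiers and may repeat a molecule. The code was tested on simulated data.

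The 10 members were always named. From each list, up to 6 called genes per comparison were named by smallest p, and for *Bcl2*, *Bcl2l11* and *Mcl1* the 5 most correlated genes. Some list genes named by this rule are left out here. Members and lists were chosen with earlier results of these data known. Positions came from GENCODE M21. The 18 alternatives were DESeq2 1.42.0, RLE scaling, no filter, a replicate block, a B cell marker term, only the groups compared, and leaving out each library. The B cell term was the log2 of the summed CPM of the B cell markers.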

Additional observations from a re-analysis of the deposited data

How the results depend on the processing

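With 0 members called in each of the 6 KO comparisons, no alternative gave a member a call there. Between day 14 and day 7 in WT SLEC the count of members called was 2, and it was 1 with the B cell term, 1 with only the groups compared, and 1 to 2 when 1 library was left out. In KO SLEC it was 3, and 1 to 3 with 1 library left out (1 without KO SLEC day 14 replicate 1). Between MPEC and SLEC in WT it was 2, and 4 with only the groups compared, which added *Bad* (-0.89, adjusted p = 0.0478) and *Bcl2l1* (0.44, adjusted p = 0.0367). In KO it was 2, and 1 to 2 with 1 library left out (1 without KO SLEC day 14 replicate 1 or KO MPEC day 14 replicate 1). The counts of 3 for the means over genotypes stayed within 1.5 times. The mean KO effect uses all groups, so a fit of only the groups compared was not run for it. No called value reversed. The count of all genes called moved more: the mean KO effect gave 12 genes, 167 without the filter and 89 by DESeq2, SLEC of day 14 gave 78, 506 and 246 (17 with the B cell term), and days in WT SLEC gave 1437, 329 with only the groups compared and 630 with the B cell term. With 1 library left out, the KO comparisons gave 2 to 209 genes in SLEC of day 7, where the full set gave 4 (209 without WT SLEC day 7 replicate 2), 2 to 223 in SLEC of day 14 (2 without KO SLEC day 14 replicate 2, 223 without WT SLEC day 14 replicate 1) and 7 to 59 in the mean (59 without WT SLEC day 7 replicate 2). A replicate block left every count of members called at its value (2, 3 and 3 between days, 2, 2 and 3 between populations). Over 15 pairs of groups the replicate differences correlated at -0.133 to 0.117, and 2 of 15 were over 0.1. Such weak correlations cannot tell whether libraries of the same number shared a mouse or a batch, and no pairing is read from them. The 4 members with the lowest CPM, *Bad*, *Bid*, *Bax* and *Bbc3*, had the widest intervals in the mean KO effect, and changes within them were not detectable at this depth with 2 libraries a group.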
